A study of Mus musculus with 12 samples.

Results

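The lipid-associated macrophage genes describe a state of tissue macrophages that take up and store fat, known from adipose tissue, atherosclerotic plaques and damaged nerve tissue. Of 9 genes named for this state, 8 were measured here in skin macrophages that carry melanin (melanophages) and in skin macrophages sorted beside them. The measured members were Trem2, Tyrobp, Fabp4, Fabp5, Lgals3, Cd9, Plin2 and Apod, each the row of the deposited value table that carries its symbol alone, among 19938 genes. The remaining gene, Spp1 (osteopontin), was not analysed here. Fabp5 has 2 probe sets, of which the one with the higher mean over the 12 arrays stood for the gene.

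Cells came from the skin of untreated mice of strain B6 wild-type SPF (kept free of specific pathogens) and were profiled on 12 arrays, 3 for each of 4 groups. The groups were MHC-II-positive melanophages, MHC-II-negative melanophages, MHC-II-positive macrophages and MHC-II-negative macrophages. Cells of all 4 groups were sorted as positive for CD11b and CD64 and as negative for CD24, CCR2 and Ly6c, and melanophages were SSC-A(high). For macrophages the titles say SSC-A(high) and the phenotype field SSC-A(low). By the phenotype field, side scatter separated melanophages from macrophages, and by the titles it did not. The labels do not settle which holds, and groups here were read from the cell type label. Whether replicate arrays stand for different mice is not stated, and their spread, on which every p-value rests, may be technical. The labels do not say how many mice went into a sample.

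In this state the surface receptor TREM2 senses lipids and lipoproteins and signals through the adaptor DAP12, the product of Tyrobp. FABP4 and FABP5 carry fatty acids in the cytosol, and PLIN2 coats the droplets in which neutral lipid is stored. Galectin-3 (Lgals3) is a sugar-binding lectin abundant in phagocytes, CD9 is a tetraspanin of the cell membrane, and apolipoprotein D (Apod) is a secreted carrier of small lipids. Macrophages that engulf dying cells or particles are known to raise several of these genes in adipose tissue and in the brain of mice.

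The labelled cell type was checked against markers. The mean of 14 macrophage genes lay between 8.94 and 9.30 on the log2 scale on every array, with Lyz2, which encodes lysozyme, at group means of 11.90 to 12.10. Of 12 melanocyte genes, 10 had a mean under 4 in every group, and Tyr, the key enzyme of melanin synthesis, lay between 2.23 and 2.30. The array medians over all probe sets lay between 2.97 and 3.08, and values near them may be background, since no detection calls are given. The number of arrays limits the precision. Replicate 1 of the MHC-II-negative macrophages and replicate 3 of the MHC-II-positive ones were the arrays least like the rest of their groups (SD of the difference over all genes 0.406 and 0.356, against a median of 0.289 over the 12 arrays). They are called the far macrophage arrays, and both bear on several members. Ccr2, the gene of a receptor for which all groups were gated negative, averaged 6.75 in MHC-II-positive against 3.40 in MHC-II-negative melanophages, and 7.11 in MHC-II-positive against 3.99 in MHC-II-negative macrophages. It thus differed between the MHC-II classes (3.23 ± 0.20, limma adjusted p = 3.93e-05), although the labels give both as CCR2(neg), and its part in the results on MHC-II class was not tested.

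Promoter windows are shown for the 3 members on which the comparisons turn, namely Apod, the member that passed a test, Lgals3, the member with the smallest p between the cell kinds, and Plin2, whose arrays in the MHC-II-positive class were all lower in melanophages. Each runs from 250 bases before to 50 bases after an annotated start, 5′ to 3′ on the gene's strand. The windows are from RefSeq on GRCm38.p6, which held such a window for 5 of the 8 members. The Plin2 window is set on a start inside the gene, whose 5′ end is annotated at 86670217. Part of its bases before that start thus lie within the gene. Capitals mark matches on either strand to GAGGAA (the core bound by the myeloid factor PU.1), CACGTG (the E-box bound by TFEB, TFE3 and MITF) or TGANTCA (AP-1).
Apod, chr16:31314759-31315058, minus strand: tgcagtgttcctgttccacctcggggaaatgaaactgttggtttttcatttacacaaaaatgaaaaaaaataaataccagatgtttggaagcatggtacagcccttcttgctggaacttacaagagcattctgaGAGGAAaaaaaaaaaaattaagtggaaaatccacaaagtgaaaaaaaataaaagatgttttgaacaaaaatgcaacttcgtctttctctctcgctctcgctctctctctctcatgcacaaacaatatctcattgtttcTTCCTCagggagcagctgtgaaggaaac
Lgals3, chr14:47373610-47373909, plus strand: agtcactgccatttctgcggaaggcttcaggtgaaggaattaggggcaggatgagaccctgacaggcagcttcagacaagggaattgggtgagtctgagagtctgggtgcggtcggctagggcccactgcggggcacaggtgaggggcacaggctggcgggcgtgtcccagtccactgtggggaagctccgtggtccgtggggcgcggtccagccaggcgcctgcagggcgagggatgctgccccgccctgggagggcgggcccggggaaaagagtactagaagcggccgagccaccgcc
Plin2, chr4:86670010-86670309, minus strand: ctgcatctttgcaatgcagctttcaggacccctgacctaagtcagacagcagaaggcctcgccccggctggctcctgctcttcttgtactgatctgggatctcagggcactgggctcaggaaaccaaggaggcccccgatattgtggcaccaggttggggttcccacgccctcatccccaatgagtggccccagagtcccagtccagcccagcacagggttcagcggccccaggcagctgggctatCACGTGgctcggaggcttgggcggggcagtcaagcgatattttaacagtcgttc
The Apod window held 2 matches to GAGGAA and none to the other motifs, the Plin2 window 1 match to CACGTG, and the Lgals3 window none of the 3. The Trem2 window held 1 match to GAGGAA and 1 to TGANTCA, and the Cd9 window none. Among 32851 windows of the same length, 28.3% held GAGGAA, 7.15% CACGTG and 7.81% TGANTCA. A match describes these letters, and binding was not tested.

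Apod, the secreted lipid carrier, rose in MHC-II-positive cells and was the member with the widest range between groups. Its log2 values in melanophages were 6.62, 8.44 and 8.94 in the MHC-II-positive class, against 2.71, 5.83 and 3.05 in the MHC-II-negative class. In macrophages they were 8.26, 8.42 and 8.16 in the MHC-II-positive class, against 3.43, 6.24 and 6.20 in the MHC-II-negative class. The MHC-II classes did not overlap in either cell kind, and MHC-II-negative melanophages replicates 1 and 3 lay near the array medians. Averaged over cell kind, Apod was 11.8-fold higher in MHC-II-positive cells (log2 difference 3.56 ± 0.67 SE, limma adjusted p = 0.0419 over all genes). The fold is a point estimate, with a 95% interval of the log2 difference from 2.07 to 5.05. In bulk samples such as these, fewer cells of a type and less RNA per cell cannot be told apart.

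The call of Apod depended on single arrays. Leaving out 1 array at a time gave log2 differences from 3.10 to 4.05 and adjusted p from 0.0155 to 0.12, and the call ended in 10 of the 12 such fits. The fits that kept it were those without MHC-II-negative melanophages replicate 2 and without MHC-II-positive melanophages replicate 1. Within melanophages the difference was 4.13 ± 0.95 (adjusted p = 0.219) and within macrophages 2.99 ± 0.95 (adjusted p = 0.379), and neither passed over all genes. The interaction was 1.14 ± 1.34 (adjusted p = 0.9996).

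**Figure D1:**
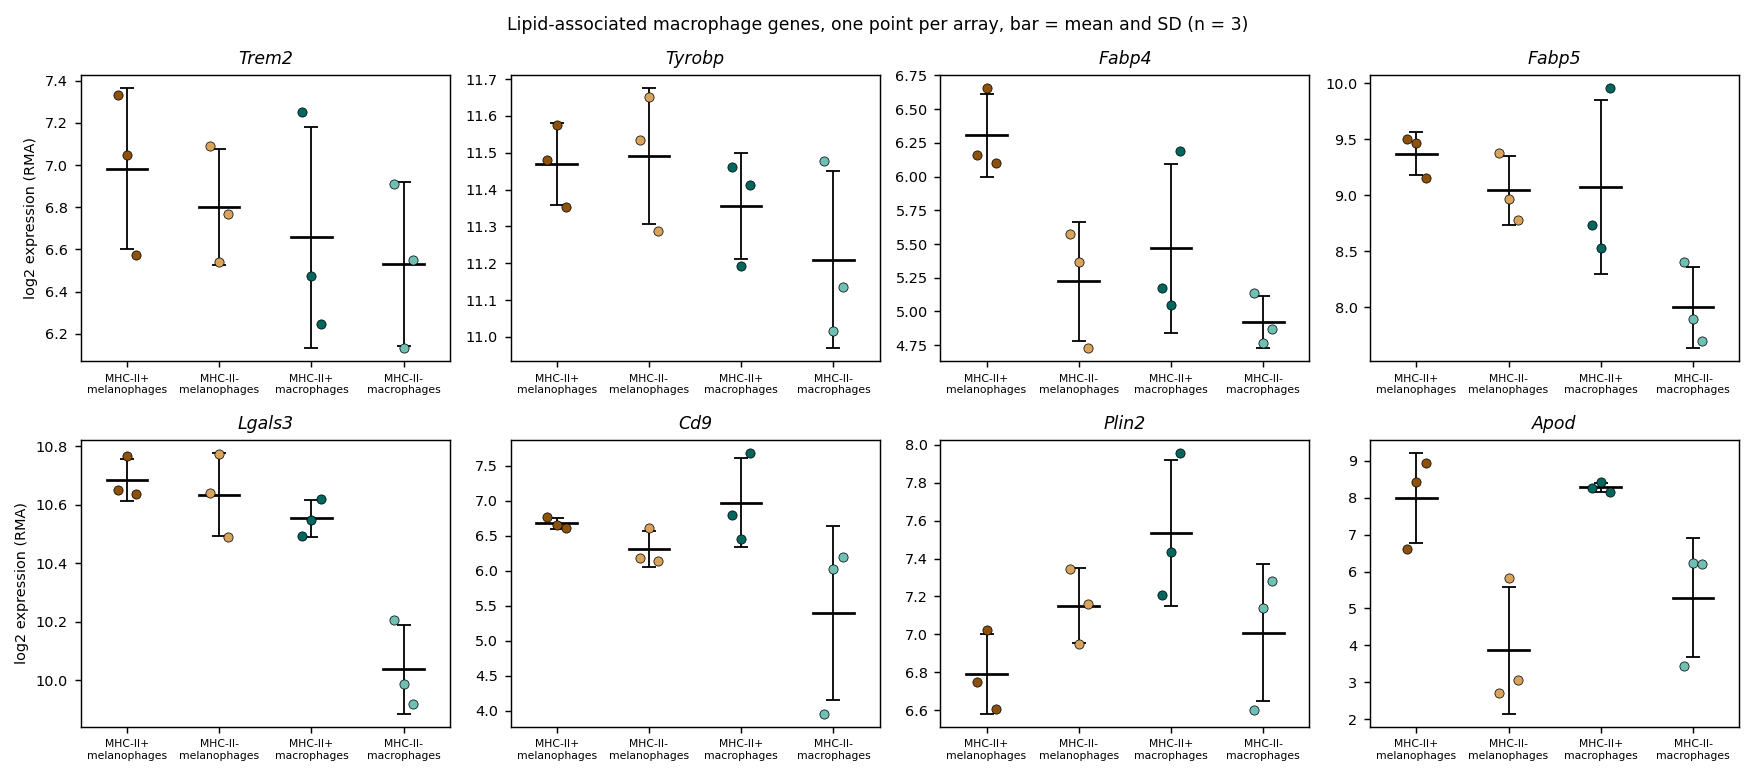
Log2 expression (RMA) of the 8 measured members in each of 4 groups, 1 point per array, with the mean and SD of the 3 arrays as bars; each panel has its own axis, which does not start at 0. Apod lies at 6.62 or above on all 6 MHC-II-positive arrays and at 6.24 or below on all 6 MHC-II-negative arrays, and the lowest mean of Fabp5 and Lgals3 is that of MHC-II-negative macrophages.

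Markers of other skin cells were set beside Apod. Of 12 fibroblast genes 10 had a mean under 4 in every group, and the list mean per array lay between 3.10 and 3.26 in MHC-II-positive melanophages, 3.12 and 3.31 in MHC-II-negative melanophages, 3.11 and 3.25 in MHC-II-positive macrophages, and 3.22 and 3.64 in MHC-II-negative macrophages. The brightest of them, Dcn (the matrix proteoglycan decorin), averaged 5.36 in MHC-II-positive against 5.26 in MHC-II-negative melanophages and 5.37 in MHC-II-positive against 6.31 in MHC-II-negative macrophages. Of 8 Schwann cell genes measured, 7 were under 4 in every group. The mean of 13 dendritic cell genes was 4.12 to 4.42 in MHC-II-positive against 3.79 to 3.85 in MHC-II-negative melanophages, and 4.61 to 4.68 in MHC-II-positive against 3.86 to 3.99 in MHC-II-negative macrophages. In replicate order, this mean was 4.124, 4.215 and 4.416 in MHC-II-positive melanophages, where Apod was 6.62, 8.44 and 8.94. In MHC-II-negative melanophages it was 3.804, 3.853 and 3.788, where Apod was 2.71, 5.83 and 3.05. For MHC-II-positive macrophages it was 4.607, 4.609 and 4.676, where Apod was 8.26, 8.42 and 8.16. For MHC-II-negative macrophages it was 3.986, 3.862 and 3.926, where Apod was 3.43, 6.24 and 6.20. With limma 4 of the 13 rose and 0 fell in MHC-II-positive cells, where 0.632% of all genes rose, namely Itgax (CD11c) and Cd207 (langerin) beside the migration receptor Ccr7 (1.97 ± 0.27, adjusted p = 0.00645) and the lectin Mgl2 (1.33 ± 0.26, adjusted p = 0.0466). Of the 13, 7 were under 4 in every group. Of 8 T cell genes 2 rose in MHC-II-positive cells and 0 fell, Cd2 (1.37 ± 0.13, adjusted p = 0.000454) and the interleukin-7 receptor gene Il7r (1.94 ± 0.25, adjusted p = 0.00406). The other 6 did not pass, 5 of the 8 differences lay above 0, and 4 of the 8 genes were under 4 in every group. The part of such cells in the Apod result was not tested.

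The genes most like Apod over the 12 arrays included genes of MHC class II, and the labels do not name the chain sorted on. After each gene was centred on its own mean, the root mean square difference from Apod was 0.77 for Cd74 (the MHC class II invariant chain), 0.92 for Il1r2 (the decoy receptor of interleukin-1) and 0.99 for the MHC class II gene H2-Eb1, where Apod itself varied by 2.15 around its mean. In MHC-II-negative macrophages replicate 1, where Apod was 3.43, Cd74 was 7.78 against 8.70 and 9.71 in replicates 2 and 3, and H2-Eb1 was 5.84 against 6.86 and 6.52. In MHC-II-negative melanophages Cd74 was highest in the array with the highest Apod (7.81, against 6.84 and 6.74), whereas H2-Eb1 was lowest there (5.52, against 5.66 and 5.75). Among MHC-II-positive melanophages, replicate 1 was lowest for Apod (6.62), Cd74 (11.15) and H2-Eb1 (9.20). Among MHC-II-positive macrophages, replicate 3 was lowest for Apod (8.16) and H2-Eb1 (10.11) and highest for Cd74 (11.93).

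**Figure D2:**
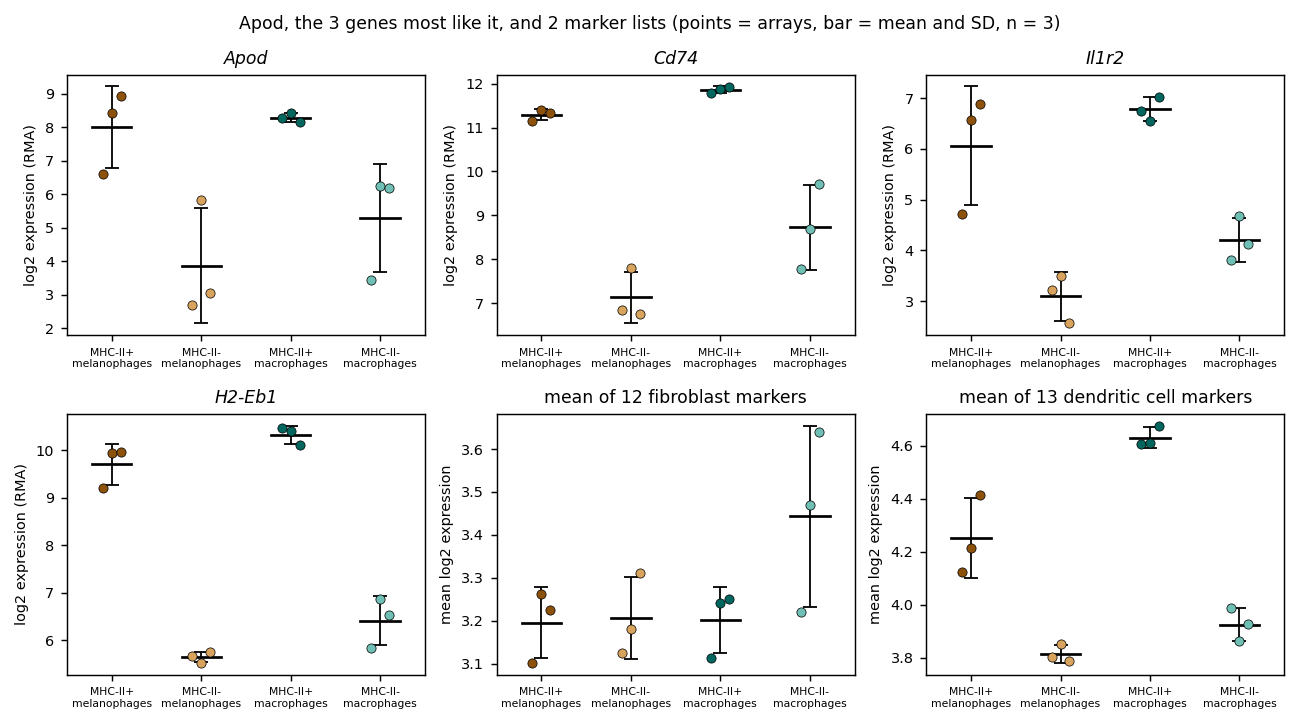
Log2 expression of Apod, of the 3 genes with the most similar profile over the 12 arrays, and the mean log2 expression of 12 fibroblast and 13 dendritic cell markers; points are arrays, bars the mean and SD of 3 arrays, and axes do not start at 0. Cd74, Il1r2 and H2-Eb1 separate the MHC-II classes as Apod does, the dendritic cell mean is higher in both MHC-II-positive groups, and the fibroblast mean reaches its highest value, 3.64, in an MHC-II-negative macrophage array.

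The receptor and its adaptor passed in none of the 7 comparisons. The span of group means was 0.45 for Trem2 and 0.28 for Tyrobp, larger than that of 83.8% and 68.4% of all genes. Trem2 had log2 values of 7.33, 7.05 and 6.57 in MHC-II-positive and 7.09, 6.54 and 6.77 in MHC-II-negative melanophages, against 7.25, 6.47 and 6.25 in MHC-II-positive and 6.91, 6.13 and 6.55 in MHC-II-negative macrophages. All 4 groups overlapped, and replicate 1 was the highest array in each of them. The difference of melanophages from macrophages was 0.30 ± 0.21 (95% interval -0.16 to 0.76, adjusted p = 0.805). That of MHC-II-positive from MHC-II-negative cells was 0.16 ± 0.21 (-0.31 to 0.61, adjusted p = 0.867). With a block on replicate number, added after seeing the data, the former was 0.30 ± 0.12 (limma, unadjusted p = 0.0394, adjusted p = 0.668). Tyrobp averaged 11.47 ± 0.11 in MHC-II-positive and 11.49 ± 0.19 in MHC-II-negative melanophages, against 11.35 ± 0.14 and 11.21 ± 0.24 in their macrophage counterparts (SD, n = 3). Its difference between the cell kinds was 0.20 ± 0.10 (-0.02 to 0.41, adjusted p = 0.704), and the upper end of that interval is 1.33-fold. These intervals hold differences in both directions, so they do not show that the groups are alike.

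Genes that act with TREM2 and DAP12 did not pass either. With limma 0 of 23 measured genes of TREM2 and DAP12 signalling were called in either averaged comparison. An unadjusted p under 0.05 was found for 3 between the cell kinds, all lower in melanophages, and for 4 between the MHC-II classes. Of all genes, 4.11% had one and were higher in melanophages, and 4.6% were higher in MHC-II-positive cells. The share of all genes that were lower is not given, so such counts for related lists, here and below, are descriptions alone. Between the cell kinds 3 of the 23 differences lay above 0, with a median of -0.12, where 54.8% of all genes lay above 0 with a median of 0.01. The smallest p belonged to Adam10 between the cell kinds (-0.34 ± 0.10, adjusted p = 0.423) and to Adam17 between the MHC-II classes (0.45 ± 0.12, adjusted p = 0.164), both proteases known to shed TREM2 from the cell surface. For the receptors of osteopontin, 0 of 8 were called with limma. All 8 differences between the cell kinds lay below 0 (median -0.35, and 4 with an unadjusted p under 0.05). The integrin chain Itga4 had the smallest p there (-0.37 ± 0.10, adjusted p = 0.292), and the hyaluronan and osteopontin receptor Cd44 the smallest between the MHC-II classes (0.51 ± 0.13, adjusted p = 0.148).

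Galectin-3 varied least between replicates, with a pooled SD of 0.114, the smallest of the 8 members. Lgals3 was at 10.65, 10.77 and 10.64 in melanophages of the MHC-II-positive class, against 10.49, 10.55 and 10.62 in MHC-II-positive macrophages. In the MHC-II-negative class it was at 10.64, 10.78 and 10.49 in melanophages, against 10.21, 9.98 and 9.92 in macrophages. All melanophage arrays lay above all macrophage arrays of the same MHC-II class, by at least 0.28 in the MHC-II-negative class and by at least 0.02 in the MHC-II-positive class. Averaged over MHC-II class, the difference was 0.37 ± 0.07, or 1.29-fold, with an unadjusted p of 0.000308 and a limma adjusted p of 0.119, so it did not pass over all genes. It passed in a fit with array weights (0.39, adjusted p = 0.0409) and with both far macrophage arrays left out, a fit chosen after seeing the data (0.42, adjusted p = 0.0432).

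Between the MHC-II classes the difference in Lgals3 was 0.52 ± 0.10 among macrophages, which did not pass (adjusted p = 0.0658), and 0.05 ± 0.10 among melanophages (95% interval -0.17 to 0.27). The macrophage difference passed with quantile normalization again (adjusted p = 0.039), cyclic loess (0.0301), centring on array medians (0.0285), array weights (0.022) and without MHC-II-negative macrophages replicate 1 (0.0305). The interaction, which tests the difference between both, was -0.47 ± 0.14 with an unadjusted p of 0.00665 and an adjusted p of 0.9996. Of 7 other galectins measured, 0 passed in either averaged comparison with limma, and 1 had an unadjusted p under 0.05 (Lgals9 between the MHC-II classes, 0.24 ± 0.08, adjusted p = 0.358).

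The fatty acid carrier Fabp5 was lowest in MHC-II-negative macrophages. It had log2 values of 9.50, 9.47 and 9.15 in melanophages of the MHC-II-positive class, against 8.74, 8.53 and 9.96 in MHC-II-positive macrophages, and of 9.38, 8.97 and 8.78 in MHC-II-negative melanophages, against 8.40, 7.90 and 7.69 in MHC-II-negative macrophages. Melanophage arrays were all above macrophage arrays in the MHC-II-negative class, and overlapped with them in the MHC-II-positive class, where macrophage replicate 3 was above every melanophage array. The averaged difference was 0.67 ± 0.24 (adjusted p = 0.521), with 1.04 ± 0.34 in the MHC-II-negative class (adjusted p = 0.671) and 0.30 ± 0.34 in the MHC-II-positive class (adjusted p = 0.95). Without both far macrophage arrays the averaged difference was 0.99 (adjusted p = 0.0281). The MHC-II-positive macrophage mean was 9.07 with replicate 3 and 8.63 without it.

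The second probe set of Fabp5 gave nearly the same values. Its means were 9.22 ± 0.16 in MHC-II-positive and 8.95 ± 0.33 in MHC-II-negative melanophages, against 8.98 ± 0.75 and 7.87 ± 0.41 in their macrophage counterparts (SD, n = 3), and its averaged difference between the cell kinds was 0.66 ± 0.24. Both carry the same symbol, and signal from near-identical copies of the gene cannot be told apart from it.

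Fabp4, the carrier best known from adipocytes and from macrophages of fatty tissue, was highest in MHC-II-positive melanophages. Its values there were 6.16, 6.66 and 6.10, against 5.57, 5.37 and 4.73 in MHC-II-negative melanophages. In macrophages it was at 5.17, 5.05 and 6.19 in the MHC-II-positive class, against 5.14, 4.77 and 4.87 in the MHC-II-negative class. The melanophage classes did not overlap (1.08 ± 0.31, adjusted p = 0.443), the macrophage classes did (0.54 ± 0.31, adjusted p = 0.726), and the interaction was 0.54 ± 0.44 (adjusted p = 0.9996). Averaged, Fabp4 differed by 0.81 ± 0.22 between the MHC-II classes (adjusted p = 0.183) and by 0.57 ± 0.22 between the cell kinds (adjusted p = 0.572).

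Most markers of fat cells and of other skin cells that make these carriers were dim. All 10 adipocyte genes measured had a mean under 4 in every group, with the adipocyte droplet protein gene Plin1 at 3.32 to 3.45 and Adipoq at 2.72 to 2.87. Of 12 endothelial genes 11 were under 4 in every group. The exception was Aqp1, at 4.96 in MHC-II-positive and 6.07 in MHC-II-negative melanophages, against 6.01 and 6.67 in their macrophage counterparts. All 12 keratinocyte genes were under 4 in every group, among them Krt14 at 3.22 to 3.62. Of 10 sebocyte genes 8 were under 4, and the others were Mgst1 and Pparg. Mgst1, a glutathione transferase gene, averaged 8.11 in MHC-II-positive and 7.85 in MHC-II-negative melanophages, against 7.18 and 7.70 in their macrophage counterparts. Its averaged difference between the cell kinds was 0.54 ± 0.23 (limma, unadjusted p = 0.0378, adjusted p = 0.639). MHC-II-positive melanophage arrays all lay above MHC-II-positive macrophage arrays for Mgst1 (0.93 ± 0.32, adjusted p = 0.679). MHC-II-negative arrays of both cell kinds overlapped (0.16 ± 0.32, adjusted p = 0.993). Pparg, the nuclear receptor of fat storage, was at 6.49 in MHC-II-positive and 6.44 in MHC-II-negative melanophages, against 6.43 and 6.05 in their macrophage counterparts. The part of such cells in the results on Fabp4 and Fabp5 was not tested.

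The genes most like both carriers overlapped in Vcam1, the adhesion molecule of endothelium and of some macrophages. For Fabp4 the root mean square differences over the 12 arrays were 0.29 for Vcam1, 0.31 for Emb and 0.33 for Rabif, with Fabp4 itself varying by 0.62 around its mean. For Fabp5 they were 0.33 for Smn1, 0.35 for Vcam1 and 0.35 for Clec4d, with Fabp5 varying by 0.64. Clec4d, a C-type lectin receptor of myeloid cells, was 9.28 and 8.92 in MHC-II-positive and MHC-II-negative melanophages, against 8.61 and 7.98 in their macrophage counterparts, and passed between the cell kinds (limma adjusted p = 0.0404).

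The droplet coat gene Plin2 ordered the groups differently. It was at 6.75, 7.02 and 6.61 in melanophages of the MHC-II-positive class, against 7.21, 7.44 and 7.96 in MHC-II-positive macrophages, so all 3 melanophage arrays were below all 3 macrophage arrays (-0.74 ± 0.22, adjusted p = 0.586). In the MHC-II-negative class it was at 7.34, 6.95 and 7.16 in melanophages, against 6.60, 7.14 and 7.28 in macrophages, where the groups overlapped (0.14 ± 0.22, adjusted p = 0.993). Without MHC-II-negative macrophages replicate 1, the array at 6.60, this difference was -0.06. The interaction was -0.88 ± 0.31, with an unadjusted p of 0.0174 and an adjusted p of 0.9996. Of the 4 groups, MHC-II-positive melanophages had the lowest mean of Plin2 and the highest of Fabp4.

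Other genes of lipid uptake, storage and breakdown gave no call. With limma 0 of 30 passed in either averaged comparison, where 4 had an unadjusted p under 0.05 between the cell kinds (1 up and 3 down in melanophages) and 6 between the MHC-II classes (3 in each direction). The fatty acid and lipoprotein receptor Cd36 had the smallest p between the cell kinds (0.29 ± 0.05, adjusted p = 0.119). It averaged 10.75 ± 0.09 and 10.94 ± 0.03 in MHC-II-positive and MHC-II-negative melanophages, against 10.39 ± 0.11 and 10.72 ± 0.05 in their macrophage counterparts (SD, n = 3), and in both classes every melanophage array was above every macrophage array. Lipoprotein lipase, Lpl, had the smallest p between the MHC-II classes (0.93 ± 0.19, adjusted p = 0.0618). It averaged 8.02 and 7.82 in MHC-II-positive melanophages and macrophages, against 7.07 and 6.92 in the corresponding MHC-II-negative groups. Of 19 lipid-binding proteins 0 passed with limma (0 and 3 with an unadjusted p under 0.05), and of 23 regulators and targets of PPAR, LXR and C/EBP 0 passed (2 and 4), where the pairs of counts stand for cell kind and MHC-II class.

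The tetraspanin Cd9 was dominated by both far macrophage arrays. It was at 6.77, 6.65 and 6.61 in MHC-II-positive and 6.18, 6.61 and 6.14 in MHC-II-negative melanophages. In macrophages it was at 6.79, 6.45 and 7.68 in the MHC-II-positive class, against 3.96, 6.03 and 6.19 in the MHC-II-negative class. MHC-II-positive arrays lay above MHC-II-negative ones in both cell kinds, by less than 0.01 in melanophages (0.97 ± 0.36 averaged, adjusted p = 0.407). The lowest macrophage value belonged to MHC-II-negative replicate 1 and the highest to MHC-II-positive replicate 3, and without both the means were 6.62 in MHC-II-positive and 6.11 in MHC-II-negative macrophages and the averaged difference 0.44. Between the cell kinds Cd9 differed by 0.31 ± 0.36 (adjusted p = 0.90), and by -0.05 without MHC-II-negative macrophages replicate 1. The genes most like Cd9 (Gclc at 0.39, Timm17a at 0.41 and Tlr1 at 0.42, against 0.83 for Cd9 around its own mean) had their lowest value on the same MHC-II-negative macrophage array. Of 13 tetraspanins and their partners, 0 passed with limma in either averaged comparison (0 and 3 with an unadjusted p under 0.05). Cd81, a partner of CD9 at the membrane, was -0.53 ± 0.18 between the MHC-II classes (adjusted p = 0.342).

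**Figure D3:**
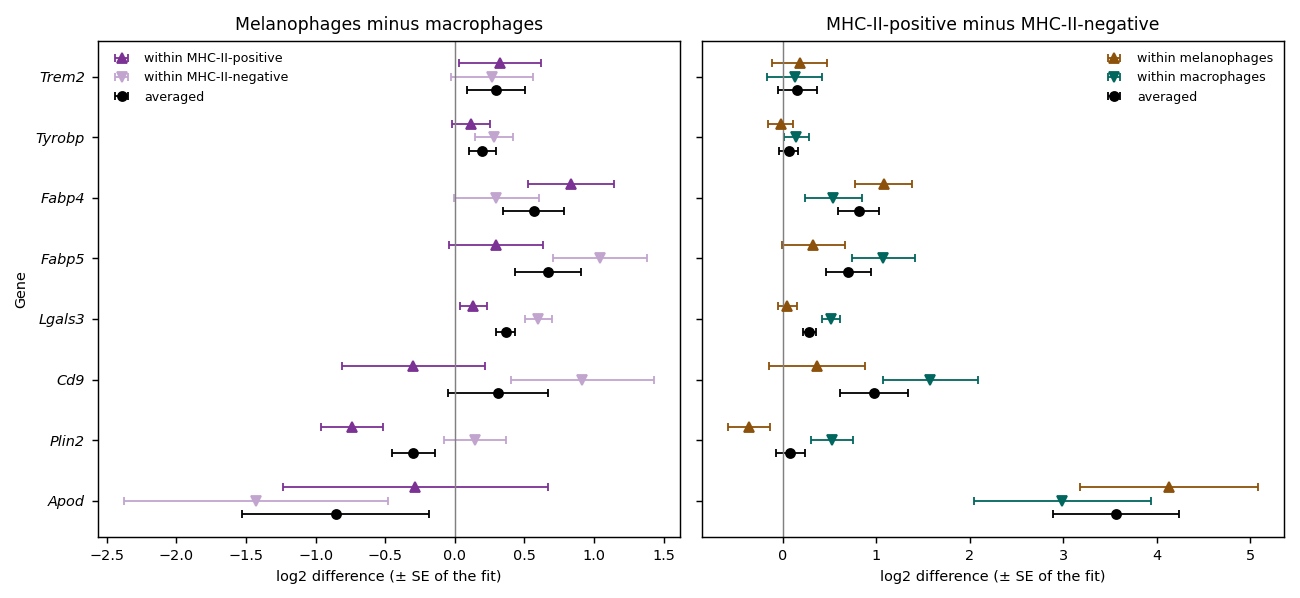
Log2 differences of the 8 members, melanophages minus macrophages on the left and MHC-II-positive minus MHC-II-negative on the right, within each class and averaged, with SE of the fit as bars. Apod on the right (3.56 ± 0.67) is the one averaged difference that passed over all genes, and Plin2 on the left lies at -0.74 in the MHC-II-positive and 0.14 in the MHC-II-negative class.

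Counted over all members, 0 of 8 were called between melanophages and macrophages averaged over MHC-II class, where 0.12% of all genes were called in either direction. An unadjusted p under 0.05 was found for 3 members, Fabp4, Fabp5 and Lgals3, all higher in melanophages, where 4.11% of all genes had one in that direction. Of the 8 differences 6 lay above 0, where 54.8% of all genes did, with a median of 0.30 against 0.01 over all genes. Arrays did not overlap in either class, in the same direction, for Lgals3 (0.707% of all genes in that direction). In the MHC-II-negative class 0 members were called (0.00502% of all genes in either direction) and 2 did not overlap, both higher in melanophages (5.57% of all genes). In the MHC-II-positive class 0 were called (0.015% of all genes in either direction), Lgals3 did not overlap in the upward direction (7.51%) and Plin2 in the downward one (4.91%).

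Between the MHC-II classes, averaged over cell kind, 1 of 8 members rose and 0 fell, where 0.632% of all genes rose. An unadjusted p under 0.05 was found for 5 members (Apod, Fabp4, Fabp5, Lgals3 and Cd9), all higher in MHC-II-positive cells, where 4.6% of all genes had one in that direction. All 8 differences lay above 0, where 40.2% of all genes did, with a median of 0.49 against -0.02. Those of Trem2 (0.16 ± 0.21), Tyrobp (0.06 ± 0.10) and Plin2 (0.08 ± 0.16) were smaller than their SE. That of Plin2 changed sign in 4 of 23 alternatives. Arrays did not overlap in either cell kind for Apod and Cd9 (1.11% of all genes). Within melanophages 0 were called (0.211% of all genes in either direction), with Fabp4, Cd9 and Apod not overlapping (5.12% of all genes higher). Within macrophages 0 were called (0.341% of all genes in either direction), with Fabp5, Lgals3, Cd9 and Apod not overlapping (4.96% of all genes higher). For the interaction 0 members and 0% of all genes passed with limma, and 2 members (Lgals3 and Plin2) had an unadjusted p under 0.05, both below 0 (2.2% of all genes).

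MHC-II-negative macrophages had the lowest mean of the 4 groups for 6 of the 8 members, all but Plin2 and Apod, where 20.8% of all genes were lowest in that group. The count was 6 without both far macrophage arrays too, with 26.4% of all genes. The highest mean belonged to MHC-II-positive melanophages for 4 members (21.1% of all genes), to MHC-II-positive macrophages for 3 (21.4%) and to MHC-II-negative melanophages for 1 (31.3%). Without both far arrays these counts were 5, 2 and 1 (22.7%, 22.9% and 33.6% of all genes). Of neighbours in the order of groups, arrays were apart for Fabp5 between MHC-II-negative melanophages and macrophages and for Lgals3 between MHC-II-positive and MHC-II-negative macrophages. They were also apart for Cd9 between MHC-II-positive and MHC-II-negative melanophages, and for Apod between MHC-II-positive melanophages and MHC-II-negative macrophages. All other neighbours overlapped, and the share of all genes with such gaps was not counted. These 8 genes were chosen as a set, and the shares describe them without a test. All members were bright, with the dimmest, Fabp4, at percentile 83.8 of mean expression. The shares rest on all genes, dim ones included, and shares among equally bright genes were not counted.

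Other genes of the same programme split between the comparisons. Of 24 further genes reported for lipid-associated macrophages, 2 were higher and 2 lower in melanophages, where 0.12% of all genes passed in either direction, and 3 were higher in MHC-II-positive cells, where 0.632% of all genes rose. In these comparisons 20 and 21 did not pass. This list, like the other gene lists here, was chosen with earlier results of these data known. The shares of all genes set beside such lists are thus descriptions alone. Those higher in melanophages were the protease gene Ctsk and Gpnmb, a glycoprotein of lysosomes and melanosomes, and neither passed between the MHC-II classes (-0.73 ± 0.26, adjusted p = 0.369 for Ctsk, and 0.03 ± 0.32, adjusted p = 0.988 for Gpnmb). Ctsk was 2.32 ± 0.26 (adjusted p = 0.0167) between the cell kinds, and its call ended in 3 of 23 alternatives (adjusted p = 0.0503 over every probe set, 0.0543 without MHC-II-negative melanophages replicate 1 and 0.0681 without MHC-II-negative macrophages replicate 2). Gpnmb was 2.11 ± 0.32 (adjusted p = 0.0439), and its call ended in 14 of 23 (adjusted p from 0.00804 to 0.136). The metalloelastase gene Mmp12 was lower in melanophages (-1.46 ± 0.22, adjusted p = 0.0439) and higher in MHC-II-positive cells (2.95 ± 0.22, adjusted p = 0.000108). Mmp12 arrays did not overlap between the cell kinds in either class. Itgax, which encodes CD11c, was lower in melanophages on average (-0.80 ± 0.12, adjusted p = 0.0404), with -1.44 ± 0.16 in the MHC-II-positive class (adjusted p = 0.0229) and -0.15 ± 0.16 in the MHC-II-negative class (adjusted p = 0.993), where arrays overlapped. The calls between the cell kinds ended in 18 of 23 alternatives for Mmp12 and in 10 of 23 for Itgax, and those between the MHC-II classes in 0 of 23 for Mmp12, Itgax and Cd52. Itgax was also higher in MHC-II-positive cells (1.26 ± 0.12, adjusted p = 0.000379). Cd52, a small surface glycoprotein of leukocytes, rose in MHC-II-positive cells (2.45 ± 0.19, adjusted p = 0.000118) and was -1.10 ± 0.19 between the cell kinds (adjusted p = 0.0772). Both averaged comparisons use the same 12 arrays. Itgax is also on the dendritic cell list, of which 2 genes (Itgax and Cd207) were lower in melanophages. The medians of the 24 differences were 0.01 and 0.02, against 0.01 and -0.02 over all genes.

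**Figure D4:**
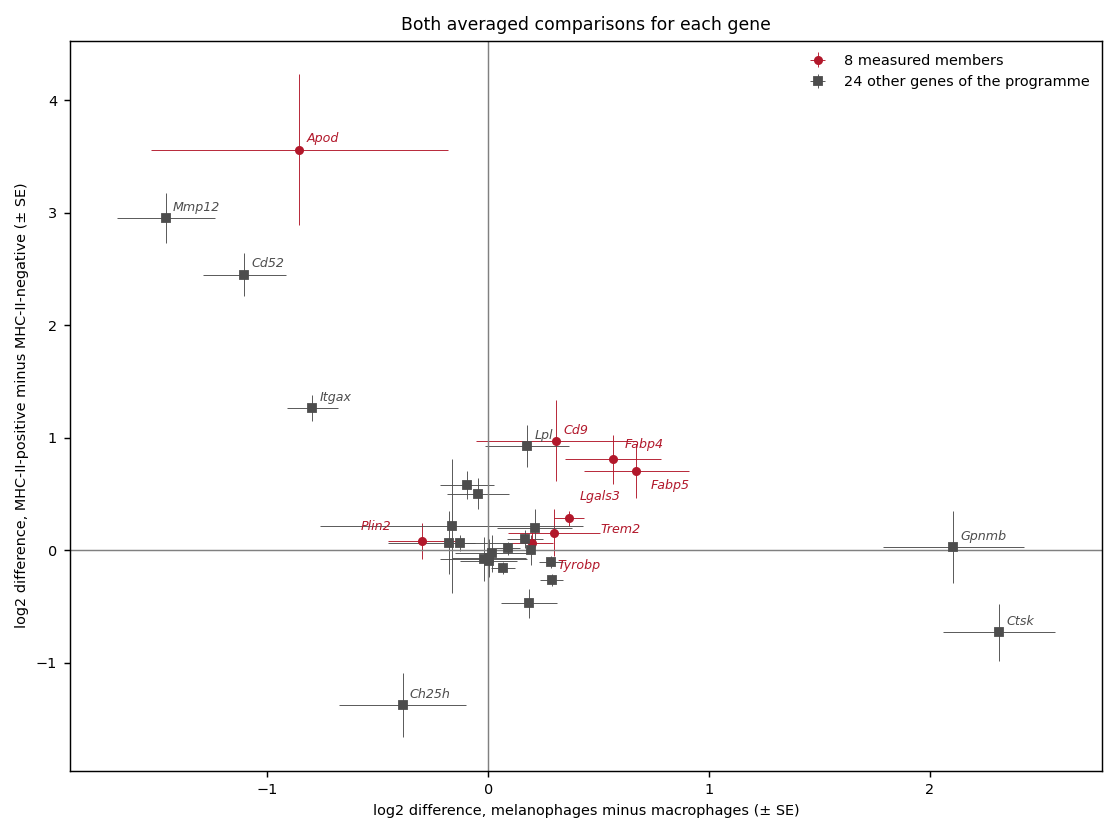
Averaged log2 difference between the cell kinds (x axis) against that between the MHC-II classes (y axis) for the 8 members and 24 other genes of the programme, with SE of the fit as bars; names are given for the members and for genes far from 0. Ctsk and Gpnmb lie to the right (2.32 and 2.11) near or below 0 on the y axis, Mmp12, Cd52 and Itgax lie at the upper left, and Fabp4, Fabp5 and Lgals3 lie above 0 on both axes.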

How the data were processed

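Total RNA of sorted skin cells was amplified, labelled with biotin and hybridised to Affymetrix arrays, per the labels' protocols. The values are log2 expression, deposited by the authors after RMA with oligo, both named in the submitters' processing notes. Their versions, options and genome build are not stated there. Of 35556 probe sets, 21789 carried 1 symbol in the platform annotation, 1621 several and 12146 none. A gene was represented by its brightest probe set on average, which gave 19938 genes, with no filter on dim ones. All 8 member symbols matched RefSeq. Groups follow the cell type label, and replicate numbers follow accession order.

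All genes were fitted with limma 3.58.1 in R 4.3.3 (lmFit and eBayes, a mean per group, 12 arrays, residual df 8, prior df 2.44). The 7 comparisons were two-sided. Calls used an adjusted p (Benjamini-Hochberg, all genes) under 0.05. The fit was tested on simulated data with independent normal residuals, with changes added to genes brighter than the median gene. Outlying arrays were not simulated, so that test does not bear on how calls depend on single arrays. The members, gene lists and tests were chosen with earlier results of these data known. All measured members are named. Genes named from a related list are called ones, up to 4 a direction, or else the gene with the smallest p. Such a gene is not named for every list and comparison. The 3 nearest genes are given for members whose group means span at least 1. Alternatives were filters on dim genes (highest group mean of at least 4 or 5), 3 normalizations, every probe set, trend and robust options, array weights, fits of 2 groups and leaving out each array. A block on runs of title codes and leaving out 2 arrays were added after seeing the data.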

Additional observations from a re-analysis of the deposited data

How the results depend on the processing

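Of 56 member results (8 genes in 7 comparisons), 41 kept direction and side of the threshold in every alternative run, and the others are given here or above. The call of Apod between the MHC-II classes also ended when every probe set was tested (adjusted p = 0.0836) and without both far macrophage arrays (0.0946). Within melanophages Apod passed with the filter at 5 (4.13, adjusted p = 0.0479) and with array weights (4.56, 0.0474). Lgals3 passed between the MHC-II classes with array weights (0.31, adjusted p = 0.0419). Members that did not pass changed sign as follows. The interaction of Trem2 (0.06) was -0.22 with array weights and -0.34 without both far arrays, and -0.15 to 0.35 when 1 array was left out. Tyrobp between the melanophage classes was 0.008 after centring, with leave-one-out values of -0.12 to 0.058. Without both far arrays Cd9 in the MHC-II-positive class was 0.057, and Plin2 was -0.061 in the MHC-II-negative class and -0.125 between the MHC-II classes (-0.019 with array weights). Leave-one-out ranges of results that changed sign were -0.17 to 0.33 for Trem2 between the macrophage classes, -0.022 to 0.12 for Lgals3 between the melanophage classes, -0.049 to 0.51 for Cd9 between the cell kinds, -0.56 to 0.057 for Cd9 in the MHC-II-positive class, -0.061 to 0.28 for Plin2 in the MHC-II-negative class, -0.023 to 0.17 for Plin2 between the MHC-II classes, and -0.75 to 0.41 for Apod in the MHC-II-positive class. The cause was not tested.

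The numbers of genes called also moved. Between the cell kinds, averaged (24 genes), it was 38 and 41 with the filters at 4 and 5, 15 after centring, 1 over every probe set, 45 with array weights and 117 without both far arrays. In the MHC-II-negative class (1 gene) it was 14 and 19 with the filters, 2 over every probe set, 11 with trend and robust options, 0 in the fit of both groups alone (with limma, and 980 genes with an unadjusted p under 0.05) and 12 without both far arrays. In the MHC-II-positive class (3 genes) it was 10 and 12 with the filters, 0 after quantile normalization again and 0 in the fit of both groups alone (with limma, 1324 and 1361 genes with an unadjusted p under 0.05), 5 over every probe set, 11 with trend and robust options, 6 with array weights and 34 without both far arrays. Between the macrophage MHC-II classes (68 genes) it was 27 in the fit of both groups alone. Leaving out 1 array gave 1 to 30 genes between the cell kinds, 0 to 8 and 0 to 20 in the MHC-II-negative and MHC-II-positive classes, 96 to 158 between the MHC-II classes, 19 to 46 within melanophages, 47 to 92 within macrophages and 0 to 3 for the interaction. Scaling moved the median gene by at most 0.03. The codes in the array titles form 3 runs of consecutive numbers, each with 1 array of every group, and the labels do not say what a run marks. Deviations from the group means correlated above 0.1 in 5 of 18 pairs of arrays from the same run and in 11 of 36 pairs from different runs. These counts rest on all genes and cannot exclude a run effect on single genes. The main fit has no block on the runs. A replicate block on the runs was added after seeing the data. With it, 18 genes were called between the cell kinds, 6 in the MHC-II-negative class and 2 in the MHC-II-positive class. Between the MHC-II classes 145 were called, with 39 within melanophages and 69 within macrophages. For the interaction 0 passed with limma, and 811 genes had an unadjusted p under 0.05. No member changed its call or direction (Apod 3.56 ± 0.48 between the MHC-II classes, adjusted p = 0.0154). Between the cell kinds the block narrowed the SE of Trem2 from 0.208 to 0.122 and widened that of Fabp4 from 0.218 to 0.241. The unadjusted limma p of Trem2 there was 0.0394 with the block and 0.181 without it.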

Other observations

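Ednrb, the endothelin receptor gene known from melanocytes, fell in MHC-II-positive cells (log2 difference -1.22 ± 0.19, limma adjusted p = 0.0176). It averaged 6.54 in MHC-II-positive against 8.19 in MHC-II-negative melanophages, and 7.46 in MHC-II-positive against 8.24 in MHC-II-negative macrophages, while 10 of the 12 melanocyte genes were under 4 in every group. Itgam, which encodes the sorted-on CD11b, lay between 5.80 and 7.13 on the melanophage arrays, against 7.05 to 8.13 on the macrophage arrays. Its arrays did not overlap between the cell kinds in either class, but the difference did not pass (-1.02 ± 0.18, adjusted p = 0.0772).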
